A study of Mus musculus with 4 samples.

Results

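Hlf, Tef, Dbp and Nfil3 are the 4 genes described here: the PAR bZIP transcription factors (named for a region rich in proline and acidic residues beside the basic leucine zipper) and the repressor that competes with them. Every probe set whose only gene symbol was one of these names was taken, which gave 8 of the 45101 probe sets of the deposited table: 2 for Hlf, 3 for Tef, 2 for Dbp and 1 for Nfil3. The value used for a gene was that of its probe set with the highest mean over the 4 arrays, and the 4 genes stand among 18194 genes tested. Hlf was chosen by its lower values in the arrays labelled Alox15-/- and the other 3 by kinship to it, so the Hlf values are given as a description with no test. The question was whether Tef and Dbp followed it and what Nfil3 did.

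The RNA came from mouse bone marrow cells sorted by flow cytometry as negative for lineage markers and positive for c-Kit and Sca-1, a gate that holds haematopoietic stem cells together with multipotent progenitors. The arrays labelled Alox15-/- (2 samples, named for a deletion of the arachidonate 15-lipoxygenase gene) were compared with those labelled WT (2 samples). Per the labels, both groups were C57BL/6 (B6) mice aged 8 weeks. The replicates are called biological, but the labels state neither the animals, any pooling nor the time of day, so a p-value here reflects only how far these 4 arrays scatter, and part of that scatter may be technical.

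PAR bZIP factors bind as dimers to a site called the D-box and activate genes there, while Nfil3 (also called E4bp4) binds the same site and represses. In many tissues Dbp and Tef are outputs of the circadian clock: Clock and Bmal1 act on the E-box, a site in clock-controlled genes, and Nr1d1 represses Nfil3. Hlf is best known in blood as a factor of stem cells that is shut off as cells differentiate, and its human counterpart is fused to E2A in a form of acute lymphoblastic leukaemia.

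The sites can be read in the promoter windows of RefSeq (GRCm38.p6, 250 bases before to 50 bases after each annotated start, 5′ to 3′). Windows were searched on both strands for the D-box TTANGTAA, the E-box CACGTG, the cyclic AMP response element TGACGTCA and the ROR element. None of the 5 windows of the 4 genes held a D-box or a ROR element, which stood in 2.32% and 0.219% of 32851 windows. The Hlf window held a cyclic AMP response element, as did 1.79% of windows. Each of 2 Tef windows held an E-box, as did 7.15% of windows. The Dbp and Nfil3 windows held none of these letters. Per3, a clock gene, is shown because its window held 2 D-boxes and so shows the letters that PAR bZIP factors and Nfil3 bind. Capitals mark the motif matches, which are descriptions of sequence and not evidence of binding.
Hlf, chr11:90390868-90391167, minus strand: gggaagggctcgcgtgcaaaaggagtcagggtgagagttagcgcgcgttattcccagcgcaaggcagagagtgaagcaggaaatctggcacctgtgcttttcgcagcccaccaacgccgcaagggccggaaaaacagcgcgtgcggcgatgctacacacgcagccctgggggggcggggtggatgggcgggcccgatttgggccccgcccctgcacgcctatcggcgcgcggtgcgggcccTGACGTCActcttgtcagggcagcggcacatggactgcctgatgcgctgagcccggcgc
Tef, upstream start, chr15:81802423-81802722, plus strand: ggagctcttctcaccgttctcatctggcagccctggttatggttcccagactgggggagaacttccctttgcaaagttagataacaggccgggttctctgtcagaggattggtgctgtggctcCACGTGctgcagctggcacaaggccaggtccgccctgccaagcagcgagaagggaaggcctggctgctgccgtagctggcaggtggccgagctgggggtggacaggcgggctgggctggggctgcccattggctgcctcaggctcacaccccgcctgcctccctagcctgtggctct
Tef, downstream start, chr15:81811164-81811463, plus strand: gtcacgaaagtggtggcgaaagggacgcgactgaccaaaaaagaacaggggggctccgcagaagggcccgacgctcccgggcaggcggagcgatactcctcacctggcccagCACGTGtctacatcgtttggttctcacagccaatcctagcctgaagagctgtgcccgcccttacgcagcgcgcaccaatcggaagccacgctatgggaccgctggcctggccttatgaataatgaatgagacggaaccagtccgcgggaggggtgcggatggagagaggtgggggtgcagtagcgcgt
Per3, chr4:151044616-151044915, minus strand: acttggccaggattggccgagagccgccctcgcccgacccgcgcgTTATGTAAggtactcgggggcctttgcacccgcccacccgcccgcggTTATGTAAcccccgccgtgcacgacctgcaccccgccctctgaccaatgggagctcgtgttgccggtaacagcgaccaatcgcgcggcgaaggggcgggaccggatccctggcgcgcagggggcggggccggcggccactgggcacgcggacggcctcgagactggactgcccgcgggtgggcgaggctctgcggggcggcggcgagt

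Alox15, the gene named in the genotype, went against the labels: it read 10.68 and 10.75 in the arrays labelled Alox15-/-, against 4.63 and 4.35 in WT arrays (log2). The labels do not say whether its probe set lies in the deleted part, and whether the labels of the groups were exchanged cannot be told from the files. Every direction below is that of the arrays as labelled. With exchanged labels each sign would turn: Hlf would differ by 0.77 (1.7-fold) and Nfil3 by -0.50 (0.707-fold), and their places in the tails of all genes would be mirrored. The WT values lay under the top bacterial control (a level of 4.95 to 5.17 over the 4 arrays, reached by probe sets for bacterial transcripts), so the array gave only a bound there. No other gene passed the limma threshold, with 0.0055% of 18194 genes called higher and 0% called lower. At an unadjusted limma p under 0.05, 4.2% of genes were higher and 3.57% lower. The groups of 2 did not overlap for 21.4% of genes in the higher direction and 17.1% in the lower. An exact two-sided permutation test of 2 against 2 cannot go below p = 0.333, so none was used. The median difference over all genes was 0.02 on the log2 scale.

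Markers of other cells differed by value between the groups in part. Neutrophil markers were higher in the arrays labelled Alox15-/- in 9 of 9 measured genes by value, with mean levels of 7.17 and 6.81 in the arrays labelled Alox15-/-, against 5.70 and 6.51 in WT arrays. None passed the limma threshold, and 4 had an unadjusted p under 0.05, beside 4.2% of all genes in this direction. Of these 4, Mmp8 stayed under the top bacterial control of every array and so has only a bound. Cxcr2, Mmp9 and Lcn2 had overlapping groups, and their differences fell as low as -0.165, -0.0325 and -0.04 without 1 array. Over all genes 46.1% were lower by value. Macrophage markers had mean levels of 7.60 and 7.43 in the arrays labelled Alox15-/-, against 7.02 and 7.20 in WT arrays, with a median difference of 0.20 over 6 genes. By value 4 were higher and 2 lower, and 2 were higher with an unadjusted limma p under 0.05, beside 4.2% of all genes. Mrc1 differed most, by 1.92, then C1qa by 0.415 and Csf1r by 0.34, with 1 of 3 Csf1r probe sets lower. Lyz2 differed by 0.06 and Cd68 by -0.27. Adgre1 differed by -0.06 but stayed under the top bacterial control of every array. Markers of the gate and of stem and progenitor cells had mean levels of 10.63 and 10.57 in the arrays labelled Alox15-/- and 10.59 and 10.55 in WT arrays over 7 genes, but the genes went both ways, 3 higher and 4 lower by value. Kit, the gene of c-Kit, differed by -0.27, Procr by -0.25, Ptprc by -0.04, Slamf1 by 0.32 and Cd48 by 0.43. For these the groups did not overlap, 2 higher and 3 lower of 7, beside 21.4% and 17.1% of all genes. Slamf1 was lower at 1 of its 3 probe sets. Ly6a, the gene of Sca-1, was not analysed here. T and NK markers stood at 5.75 and 5.81 in the arrays labelled Alox15-/-, against 5.66 and 5.79 in WT arrays. Of 9 genes 6 were higher and 3 lower by value. Cd8a differed by 0.535, Nkg7 by 0.51, Lat by -0.355 and Gzma by -0.45. Cd3e, Cd3g and Ncr1 stayed under the top bacterial control of every array. B cell markers stood at 5.51 and 5.73 in the arrays labelled Alox15-/-, against 5.4 and 5.47 in WT arrays, 4 higher and 1 lower. Of these Pou2af1 differed most, by 0.73, and lay under the top bacterial control in WT arrays. Erythroblast markers stood at 5.94 and 5.85 in the arrays labelled Alox15-/-, against 5.77 and 5.74 in WT arrays. Of the 5 erythroblast genes Klf1 differed by 0.87 and 3 were lower, with a median of -0.01. The signal gap between the ends of the Gapdh transcript was 2.15 in the arrays labelled Alox15-/- and 2.38 in WT, and that of Actb was -0.21 in both groups. The part of other cells or of RNA quality in the values of Hlf, Nfil3 and the gene lists given here was not tested.

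Hlf was lower in both arrays labelled Alox15-/-, at both of its probe sets. The probe set used read 10.85 and 10.89 in the arrays labelled Alox15-/-, against 11.64 and 11.63 in WT arrays. The groups lay apart by many times the gap between replicates. Hlf was chosen for its lower values in the arrays labelled Alox15-/-, so this is a description only. Its means were 10.87 ± 0.03 in the arrays labelled Alox15-/- and 11.64 ± 0.01 in WT (SD, n = 2 each), a difference of -0.77 ± 0.13 (SE). On the linear scale the level labelled Alox15-/- was 0.588 of the WT level. Only 0.945% of all genes had a lower difference. The second probe set read 9.93 and 9.78 in the arrays labelled Alox15-/-, against 10.47 and 10.52 in WT arrays, a difference of -0.65. Both probe sets measured the same RNA samples, so they are not independent replicates. Hlf stayed among the brighter signals of every array: the probe set used exceeded 95.4% and 95.5% of probe sets in the arrays labelled Alox15-/-, against 97.9% and 97.8% in WT arrays. Without 1 array, whichever it was, the Hlf difference lay between -0.79 and -0.75. In RNA of a sorted population, fewer Hlf-expressing cells and less Hlf RNA per cell cannot be told apart.

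Tef, a PAR bZIP factor widely expressed outside blood, differed little. Its probe set read 7.94 and 7.88 in the arrays labelled Alox15-/-, against 8.12 and 7.97 in WT arrays. The groups did not overlap, but the gap between them was smaller than that between the WT arrays. The difference was -0.13 ± 0.13 (SE, limma adjusted p = 0.838), with a 95% interval of -0.47 to 0.20. A larger absolute difference was found in 51.6% of all genes. A second probe set read 7.80 and 7.89 in the arrays labelled Alox15-/-, against 7.95 and 8.04 in WT arrays, a difference of -0.15 (-0.145 before rounding). The third was dim and read 5.59 and 5.38 in the arrays labelled Alox15-/-, against 5.37 and 6.46 in WT arrays. Its difference of -0.43 rested on WT replicate 2 alone. No Tef probe set pointed upward.

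Dbp, the PAR bZIP factor with the strongest daily rhythm in many tissues, varied more between arrays of a group than between groups. It read 8.02 and 8.91 in the arrays labelled Alox15-/-, against 8.55 and 8.78 in WT arrays, so that the groups overlapped. The difference was -0.20 ± 0.31 (SE, limma adjusted p = 0.906), with a 95% interval of -0.97 to 0.58. Without Alox15-/- replicate 1 it was 0.25, and without Alox15-/- replicate 2 it was -0.64, so these data give Dbp no direction. The other probe set read 7.44 and 7.47 in the arrays labelled Alox15-/-, against 7.47 and 7.88 in WT arrays, a difference of -0.22. Here too the WT arrays lay further apart than the group means.

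Nfil3, the repressor that shares the D-box, stood on the other side of zero from Hlf. The single Nfil3 probe set read 7.84 and 7.94 in the arrays labelled Alox15-/-, against 7.43 and 7.35 in WT arrays. Both values labelled Alox15-/- lay above both WT values, by more than the gap within either group. Means were 7.89 ± 0.07 in the arrays labelled Alox15-/- and 7.39 ± 0.05 in WT (SD, n = 2 each), and the difference of 0.50 ± 0.13 (SE) amounted to 1.41-fold on the linear scale. Its 95% interval, not adjusted for the number of genes, ran from 0.17 to 0.83. The difference did not pass the threshold over all genes (limma adjusted p = 0.575, unadjusted p = 0.0108). A higher difference was found in 3.0% of all genes. Without any 1 array it stayed between 0.45 and 0.55. Thus 0 of the 3 genes other than Hlf passed. In groups without overlap, 1 of the 3 was lower (Tef) and 1 was higher (Nfil3), beside 17.1% and 21.4% of all genes. The difference between Hlf and its relatives was not tested, because Hlf was chosen for its own value.

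**Figure D1:**
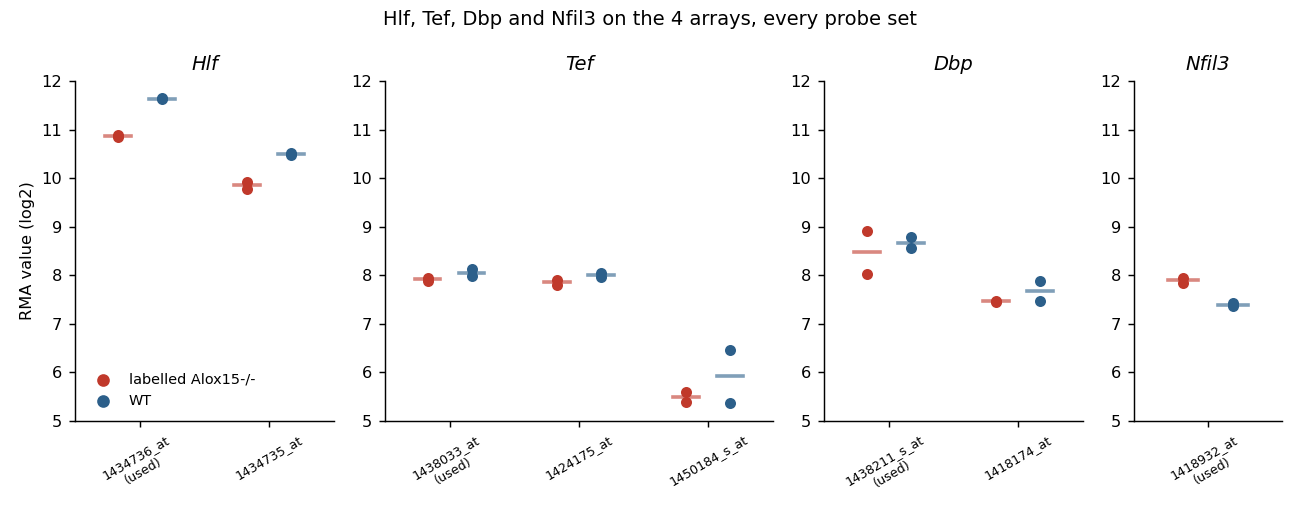
RMA values (log2, vertical axis) of every probe set of Hlf, Tef, Dbp and Nfil3, with arrays labelled Alox15-/- in red on the left of each pair and WT arrays in blue on the right; points are arrays and bars are means of 2. Both Hlf probe sets are lower and the Nfil3 probe set is higher in the arrays labelled Alox15-/-, while the 2 arrays labelled Alox15-/- of the Dbp probe set used span 8.02 to 8.91 and enclose both WT values.

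**Figure D2:**
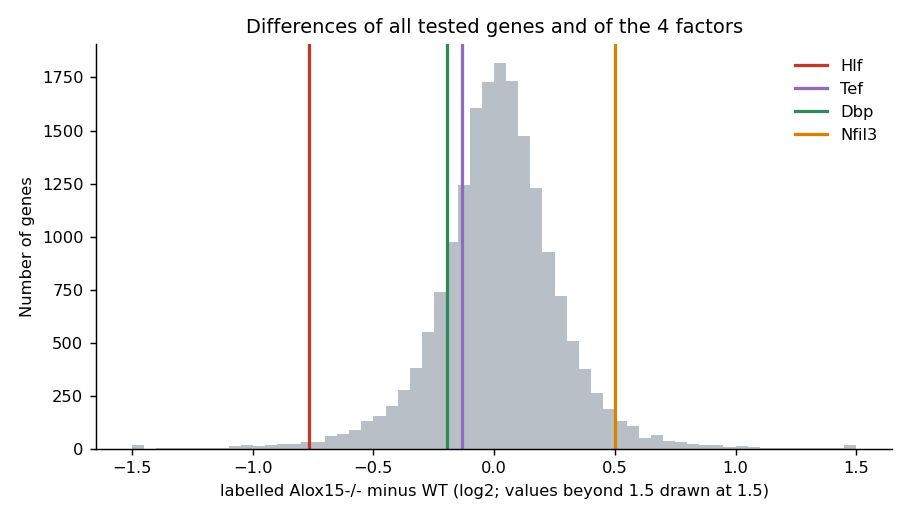
Number of genes (vertical axis) by difference between arrays labelled Alox15-/- and WT arrays (log2, horizontal axis), over 18194 genes, with lines at the 4 factors. Tef at -0.13 and Dbp at -0.20 fall in the body of the distribution, Hlf at -0.77 in its lower tail and Nfil3 at 0.50 in its upper tail.

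The circadian clock genes upstream of Dbp, Tef and Nfil3 lay on both sides of zero. Of 19 listed genes 17 were measured. By value 5 were higher and 12 lower in the arrays labelled Alox15-/-, where 46.1% of all genes were lower, and their median was -0.03 against 0.02 over all genes. That median was -0.19 without WT replicate 1 and also without the dimmer 50 percent of genes. None passed the limma threshold (lowest adjusted p = 0.571). Of the 17, 1 was lower with an unadjusted p under 0.05, beside 3.57% of all genes. Groups did not overlap for 4 genes in the lower direction (23.5%, beside 17.1% of all genes). Clock, the activator that acts through the E-box, read 6.71 and 7.68 in the arrays labelled Alox15-/-, against 7.67 and 7.99 in WT arrays. Its difference of -0.64 (-0.635 before rounding) ran from -1.12 to -0.15 without 1 array. Its partner Arntl, the gene of Bmal1, differed by -0.11, with both groups overlapping.

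Rora, a nuclear receptor that activates through the ROR element, was the clock gene with an unadjusted p under 0.05. It read 7.75 and 7.72 in the arrays labelled Alox15-/-, against 8.23 and 8.34 in WT arrays. The groups did not overlap, and the difference of -0.55 ± 0.13 (SE) had a limma p of 0.00721 before and 0.571 after adjustment. Of its 9 probe sets 8 were lower, from -1.29 to 0.10 over all. The repressor Bhlhe40 differed by -0.43, of which Alox15-/- replicate 1 carried most: without 1 array it ran from -0.78 to -0.09.

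The period genes, which repress Clock and Bmal1, went different ways. Per3 read 8.24 and 8.18 in the arrays labelled Alox15-/-, against 8.84 and 8.21 in WT arrays. Its difference of -0.32 therefore rested on WT replicate 1 and was 0 without it, although 5 of its 6 probe sets were lower. Per2 differed by 0.35 (0.345 before rounding) with 1 of 3 probe sets lower, and by -0.02 without WT replicate 1. Per1 differed by 0.12 and ran from -0.32 to 0.56 without 1 array. Of the receptors that repress Nfil3 and Arntl, Nr1d1 differed by 0.30 (-0.08 to 0.68 without 1 array) and Nr1d2 by -0.12. The limma adjusted p of these 5 genes ran from 0.775 to 0.955.

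After the values were seen, the gap between the arrays of each group was set out for the same genes. Dbp was higher in replicate 2 by 0.89 in the arrays labelled Alox15-/- and by 0.23 in WT. Per1 was higher in replicate 2 by 0.88 in the arrays labelled Alox15-/- and by 0.68 in WT, and Clock by 0.96 in the arrays labelled Alox15-/- and by 0.32 in WT. Nr1d1 was lower in replicate 2 of both groups, by -0.75 in the arrays labelled Alox15-/- and by -0.34 (-0.335 before rounding) in WT. Of the 17 clock genes, 6 were higher in replicate 2 of both groups (35.3%, against 23.4% of all genes) and 4 were lower in both (23.5%, against 24.1%). For Dbp and Per1, then, both gaps within a group were larger than the difference between groups. Hlf, Tef and Nfil3 had gaps of at most 0.15 in size in either group.

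**Figure D3:**
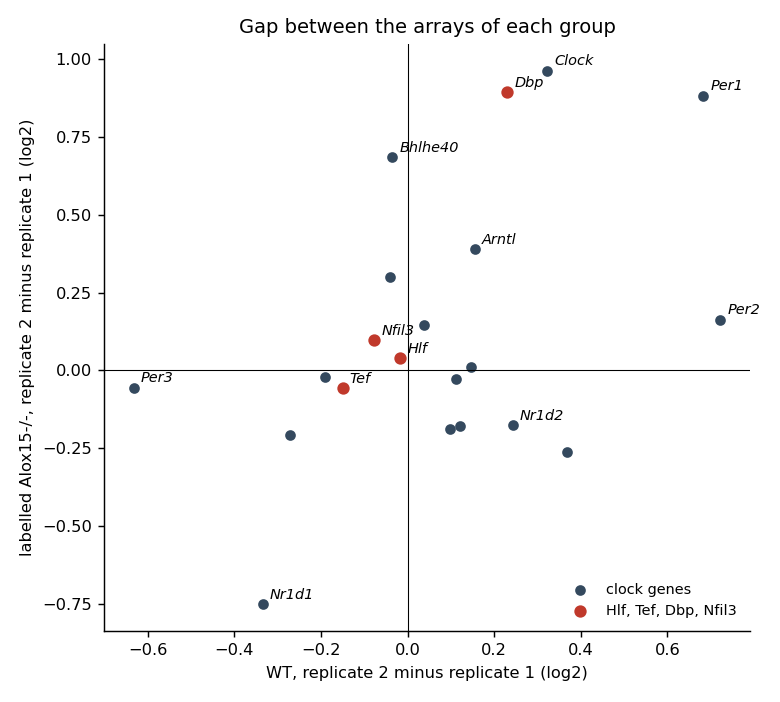
Replicate 2 minus replicate 1 in the arrays labelled Alox15-/- (log2, vertical axis) against the same gap in the WT arrays (log2, horizontal axis) for the 4 factors (red) and 17 clock genes (dark). Dbp, Clock and Per1 lie at upper right with gaps of 0.89, 0.96 and 0.88 in the arrays labelled Alox15-/-, Nr1d1 lies at lower left, and Hlf, Tef and Nfil3 lie near the centre.

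Genes described as controlled by PAR bZIP factors in mouse liver or brain lay on both sides of zero. Of 12 listed genes 9 were measured, 3 higher and 6 lower, with a median of -0.07 (-0.27 without the dimmer 50 percent of genes), and 0 passed the limma threshold or an unadjusted p of 0.05. Pdxk, which makes the active form of vitamin B6, read 9.80 and 10.11 in the arrays labelled Alox15-/-, against 10.26 and 10.19 in WT arrays, a difference of -0.27. Its other 2 probe sets were higher. Acot2, a mitochondrial thioesterase, also differed by -0.27, with its second probe set at 0.31. Alas1, the first enzyme of haem synthesis, differed by 0.11. Acot3, Cyp2b10, Cyp7a1 and Nr1i3 stayed under the top bacterial control of every array. The list median of -0.07 is the value of Cyp2b10 and so has only a bound. Groups did not overlap for Acot2, Pdxk and Ppara, 3 of 9 genes and all lower (33.3%, beside 17.1% of all genes).

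Genes with a D-box in the promoter window had nearly the median of other genes. Windows of 304 tested genes held TTANGTAA, and their median difference was 0.03, against 0.02 for 14065 genes whose windows did not. In these groups 44.4% were lower with the D-box, against 46.2% without it. Groups did not overlap for 42.4% of genes with the D-box, against 38.5% without it. With the exact sites TTATGTAA or TTACGTAA the median over 147 genes was 0.04, and groups did not overlap for 47.6%, against 38.5% of genes without them. These shares were not tested, and 0 genes of either kind passed the limma threshold. Of the listed genes, Per3 (-0.32), Myct1 (-0.22), Timeless (0.28) and Cd68 (-0.27) held a D-box.

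Factors that have been used together with Hlf to turn mouse blood cells into stem cells were lower by value in the arrays labelled Alox15-/-, as Hlf was. Of 7 listed genes 5 were measured and 5 were lower, with a median of -0.42. That median is the value of Runx1t1, which stayed under the top bacterial control of every array and so has only a bound, and Zfp37 did so in the arrays labelled Alox15-/-. The median was -0.51 without the dimmest 30 percent of genes and -0.24 over every probe set. None passed the limma threshold (lowest adjusted p = 0.517), and 3 had an unadjusted p under 0.05, beside 3.57% of all genes in this direction. For 4 the groups did not overlap (80%, beside 17.1% of all genes), and Runx1t1 is counted both in these 4 and in the 3. These lists were chosen with the Hlf result known, so the counts are no independent support. Mycn, a Myc family factor, read 9.87 and 9.75 in the arrays labelled Alox15-/-, against 10.40 and 10.40 in WT arrays. The difference of -0.59 ± 0.13 (SE) had an adjusted p of 0.517, and a second bright probe set gave -0.58, while a dim one gave 0.11. Meis1, a homeobox cofactor of stem cells, read 9.79 and 10.14 in the arrays labelled Alox15-/-, against 10.46 and 10.48 in WT arrays. All 3 of its probe sets were lower, from -0.75 to -0.16. Zfp37 differed by -0.24, with overlap, and Lmo2, a bridging factor of the stem cell complex, by -0.11.

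Genes that mark human blood stem cells together with HLF were also lower by value in 6 of 6, with a median of -0.27. None passed the limma threshold (lowest adjusted p = 0.624), and 2 had an unadjusted p under 0.05, beside 3.57% of all genes in this direction. For 4 the groups did not overlap (66.7%, beside 17.1% of all genes). Mllt3, a chromatin reader that maintains stem cells, read 10.04 and 9.88 in the arrays labelled Alox15-/-, against 10.24 and 10.57 in WT arrays. Its 3 probe sets gave -0.71 to -0.40. Hoxa9, a homeobox factor, read 11.61 and 11.67 in the arrays labelled Alox15-/-, against 12.05 and 11.99 (11.985 before rounding) in WT arrays, and its 2 probe sets gave -0.38 and -0.36. The others were less even. Runx1 gave -0.32 (-0.315 before rounding) at the probe set used, but 3 of its 6 probe sets were higher, up to 0.59. Myct1 gave -0.22, with 2 of 4 probe sets higher. Spink2 gave -0.23 and Mecom -0.11, both with overlapping groups. Taking every probe set brought the list's median to -0.07.

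The leukaemia partner of HLF and genes described as targets of the fusion protein lay on both sides of zero. Tcf3, the E2A gene, differed by 0.05, Bcl2, which protects from apoptosis, by 0.13, Snai2 by -0.19 and Anxa8 by 0.00 (0.0025 before rounding). With Lmo2, these 5 genes had a median of 0.00, and 0 passed the limma threshold or an unadjusted p of 0.05.

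On the side of Nfil3, the innate lymphoid programme in which it acts lay on both sides of zero. Of 10 listed genes 8 were measured, 3 higher and 5 lower, with a median of -0.07 (-0.22 to 0.14 without 1 array) and none past the limma threshold or an unadjusted p of 0.05. Id2, an inhibitor of E proteins that lies downstream of Nfil3 in innate lymphoid development, read 6.11 and 5.94 in the arrays labelled Alox15-/-, against 5.70 and 5.67 in WT arrays, a difference of 0.34. Of the 3 Id2 probe sets 1, a dim one, was lower (-0.08). Ets1 differed by 0.27, with 1 of 4 probe sets lower (-0.37). Tox, by contrast, differed by -0.42 (-0.415 before rounding), lower at all 3 of its probe sets. Eomes and Tbx21, factors of NK cells, stayed under the top bacterial control of every array. Both are counted among the 5 lower genes, and the list median is set by their values of -0.03 and -0.10.

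Interleukin 3, a cytokine that induces Nfil3 in progenitor B cells, itself stayed under the top bacterial control of every array. Its axis had a median of -0.0031 over 10 genes, 4 higher and 6 lower, with 0 past the limma threshold. At an unadjusted p under 0.05, 2 were lower, beside 3.57% of all genes. Csf2rb2, the mouse beta chain used only by interleukin 3, read 7.22 and 6.90 in the arrays labelled Alox15-/-, against 7.70 and 7.76 in WT arrays, a difference of -0.67 ± 0.16 (SE, limma adjusted p = 0.571). Csf2rb and Csf2rb2 are near-identical copies whose probe sets may not separate them, and Csf2rb differed by 0.10. Cish, a feedback inhibitor induced by Stat5, differed by -0.47. Il3ra, the alpha chain, differed by 0.26 with overlapping groups.

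The C/EBP factors, bZIP relatives outside the PAR branch, were higher by value in 5 of 5 measured genes. Among all genes 46.1% were lower by value. The median of the 5 was 0.11, and 0 passed the limma threshold. Cebpd read 6.86 and 7.09 in the arrays labelled Alox15-/-, against 6.10 and 6.18 in WT arrays, a difference of 0.84 ± 0.14 (SE, limma adjusted p = 0.423), and its second probe set gave 0.68. Cebpa, the factor of granulocyte and monocyte progenitors, differed by 0.41. These 2 were the ones with an unadjusted p under 0.05, beside 4.2% of all genes in this direction. Cebpb differed by 0.01 (0.005 before rounding) and ran from -0.22 to 0.23 without 1 array. Ddit3 differed by 0.11, ran from -0.08 to 0.30 without 1 array, and had 1 of 2 probe sets lower (-0.33). Cebpg differed by 0.08, with 1 of 3 probe sets lower (-0.325).

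**Figure D4:**
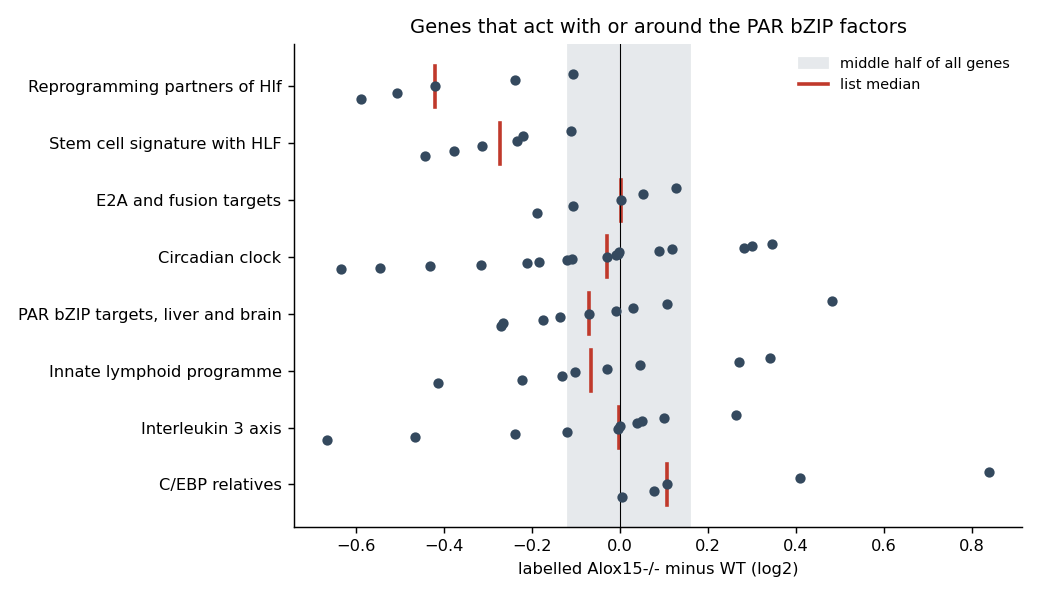
Difference between arrays labelled Alox15-/- and WT arrays (log2, horizontal axis) for the genes of 8 lists (rows); each point is a gene, red bars are list medians and the grey band spans the quartiles of all genes. All 5 reprogramming partners of Hlf and all 6 genes of the stem cell signature lie left of 0, all 5 C/EBP genes lie right of it, and the other lists spread to both sides.

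Hlf lies on chromosome 11, as does Alox15, with 305 measured genes between them in RefSeq order. Tef, Dbp and Nfil3 lie on chromosomes 15, 7 and 13. The 10 measured genes on each side of Hlf had a median difference of -0.07 (-0.075 before rounding), 9 higher and 11 lower, with 0 past the limma threshold. Groups did not overlap for 12 of these 20 genes (60%, beside 38.5% of all genes), 7 lower and 5 higher. Of the 3 nearest on each side, Stxbp4, the gene next to Hlf, read 7.32 and 7.52 in the arrays labelled Alox15-/-, against 8.55 and 8.84 in WT arrays, a difference of -1.27 ± 0.16 (SE, limma adjusted p = 0.352). All 4 of its probe sets were lower, from -1.51 to -0.16. Pctp, which encodes a phosphatidylcholine transfer protein and lies on the other side, read 7.03 and 7.0 in the arrays labelled Alox15-/-, against 8.67 and 8.86 in WT arrays, a difference of -1.75 (limma adjusted p = 0.206), and its second probe set gave -0.90. Mmd, the gene adjacent to Hlf on that side, differed by 0.17, and its other probe sets gave 0.31 and -0.17. Tmem100 differed by -0.37 and lay under the top bacterial control in the arrays labelled Alox15-/-. Cox11 differed by 0.07, with a dim second probe set at -0.50. Tom1l1 differed by 0.61, which rested on WT replicate 1, and its other probe set gave -0.04. At the probe sets used, the genes adjacent to Hlf thus lay on both sides of zero. Whether chromosomal position had a part in the value of Hlf was not tested.

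**Figure D5:**
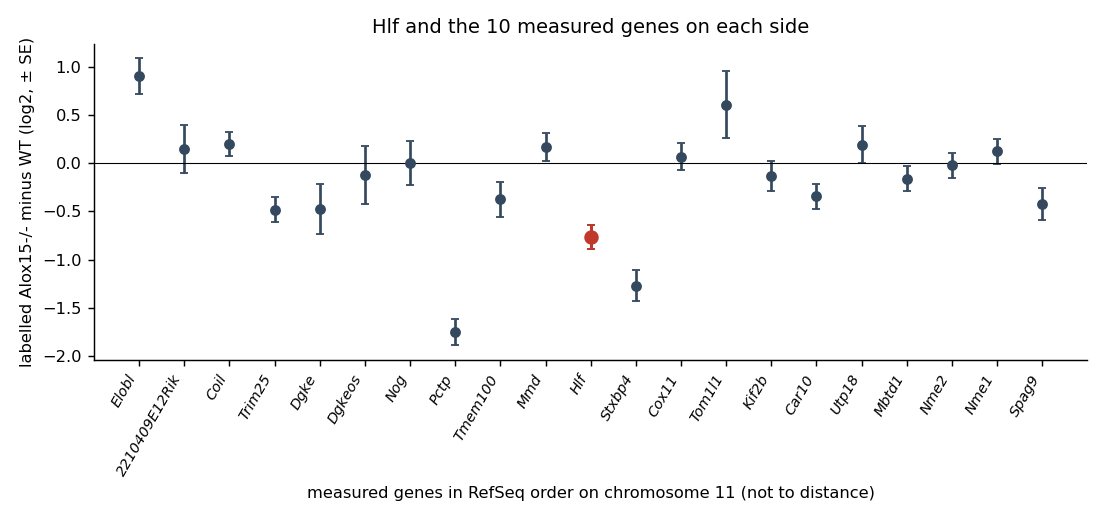
Difference between arrays labelled Alox15-/- and WT arrays (log2, vertical axis, bars are SE) of Hlf (red) and the 10 measured genes on each side (dark), in RefSeq gene order on chromosome 11 along the horizontal axis. Pctp at -1.75 and Stxbp4 at -1.27 lie below Hlf at -0.77, while Mmd, between Pctp and Hlf, lies at 0.17.

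The genes whose pattern was most like that of each factor were those with the smallest Euclidean distance between array values centred on their own mean, over 4 arrays and 13378 genes with a mean above the highest bacterial control. With so few arrays, likeness says little beyond a similar difference and similar gaps within groups. For Hlf they were Gm15417 at a distance of 0.0849, Scfd2 at 0.0900, Agbl3 at 0.108, Zzef1 at 0.113 and Pitpnm2 at 0.120. Their differences ran from -0.84 to -0.65, but other probe sets of Zzef1 gave 0.06 and 0.03 and that of Pitpnm2 gave 0.59. The second probe set of Scfd2 gave -0.13, and the other Agbl3 probe sets, all dim, ran from -1.37 to 0.02. Zzef1 lies on chromosome 11. For Tef they were 2310022A10Rik, Dgcr8 and Mycbp2, and for Dbp they were Scube3, Alkbh8 and Gm11772. For Nfil3 they were Anln, a protein of the dividing cell's contractile ring, at a distance of 0.00893, Hells, a chromatin remodeller of the replicating cell, at 0.0197 and Gpld1 at 0.0571. Anln read 8.97 and 9.07 in the arrays labelled Alox15-/-, against 8.56 and 8.49 in WT arrays, a difference of 0.50. The second probe set of Anln gave 0.23, and the other probe sets of Hells gave 0.29 and -0.08.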

How the data were processed

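Expression was measured on 4 Affymetrix arrays of sorted mouse bone marrow cells, grouped by title. The deposited values are on the log2 scale. The submitters' processing notes name Affymetrix Expression Console 1.1 and RMA, a method with background correction, quantile normalization across arrays and a summary per probe set. No genome build is given in the sources used here. Per the labels' protocols a whole-transcript sense labelling kit was used, whereas the probe set identifiers belong to a design for antisense targets, and values are taken as deposited. Pearson's r across probe sets was 0.990 between the arrays labelled Alox15-/-, 0.988 between WT arrays and 0.986 to 0.988 between groups.

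Probe sets with 1 symbol in the platform annotation (34958, against 932 with several and 9211 with none) were kept. Each gene took its brightest probe set by mean over all arrays, and dim genes were not removed. Arrays labelled Alox15-/- minus WT was the contrast, fitted over 18194 genes without a block by limma's lmFit and eBayes (limma 3.58.1, R 4.3.3), with two-sided p-values, Benjamini-Hochberg adjustment and a threshold of 0.05. The fit was tested on simulated data. The number of arrays limits the precision. A level was called under the top bacterial control when it lay under the maximum of 27 such probe sets on every array of the group. Gene order and promoters came from RefSeq tables of GRCm38.p6, where 18031 genes were placed. Of 121 distinct list genes 105 were measured.

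The members and lists were chosen with earlier results of these data known. Genes that could be named were the 4 factors with every probe set, Alox15, genes of lists of up to 10 measured genes, the 5 largest absolute differences of longer lists with Per1, Per2, Per3, Nr1d1, Nr1d2, Arntl and Clock, the 3 nearest neighbours of Hlf on each side, and the genes of most similar pattern (5 for Hlf, 3 for each other factor). Within the lists not every gene is named, and which ones are was decided with their values seen, as was Timeless. Alternatives covered normalization, dim genes, variance moderation, probe set choice, array weights, a replicate block and leaving out each array. Figures were drawn with matplotlib 3.10.9.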

Additional observations from a re-analysis of the deposited data

How the results depend on the processing

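Over 16 alternatives, Hlf stayed between -0.79 and -0.71, the value for the mean of its probe sets. Nfil3 stayed between 0.45 and 0.55 (limma adjusted p from 0.380 to 0.952) and Tef between -0.43 and -0.06 (0.700 to 0.995). Dbp was 0.25 without Alox15-/- replicate 1 and -0.64 without Alox15-/- replicate 2 (range over leaving out 1 array), and -0.21 to -0.19 otherwise, with adjusted p from 0.819 to 0.966. No alternative called Tef, Dbp or Nfil3. Fits without 1 array treat a lone array as varying like the other group. A mean-dependent prior called 9 genes higher and 13 lower, no moderation 0 and 1, the most variable probe set 2 and 1, every probe set 1 and 1, and leaving out any 1 array 0 higher and 0 lower, so that Alox15 no longer passed. The causes of these changes were not tested.

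List medians moved as follows. Without the lowest 30 percent of genes, PAR bZIP targets were at -0.14, the stem cell signature at -0.32 (-0.315), D-box genes at 0.02 and the neighbours of Hlf at 0.0803. Without the lowest 50 percent, clock genes were at -0.19, PAR bZIP targets at -0.27, the stem cell signature at -0.32 (-0.315), E2A and fusion targets at 0.0525, the interleukin 3 axis at -0.12 and D-box genes at 0.015. With the mean of all probe sets, PAR bZIP targets were at -0.0175, the stem cell signature at -0.14, E2A and fusion targets at 0.10 and C/EBP genes at 0.0371. With the most variable probe set, PAR bZIP targets were at -0.00875, reprogramming partners at -0.59, the stem cell signature at -0.15, C/EBP genes at 0.36 and the neighbours at -0.15. With every probe set, PAR bZIP targets were at -0.0138, reprogramming partners at -0.24, the stem cell signature at -0.0738, E2A and fusion targets at 0.0525 and the neighbours at -0.16. With 25 and 50 neighbours on each side the median was 0.0297 and 0.0269. Groups did not overlap for 50% of the 50 genes (10 lower, 15 higher) and 53% of the 100 (21 lower, 32 higher). Over all genes this share was 38.5%. Leaving out 1 array gave -0.34 to -0.22 for the stem cell signature, -0.55 to -0.29 for reprogramming partners, -0.19 to -0.0075 for clock genes, -0.0863 to -0.0175 for PAR bZIP targets, -0.0788 to 0.0338 for E2A and fusion targets, -0.22 to 0.14 for the innate lymphoid list, -0.0928 to 0.0744 for the interleukin 3 axis, 0.0688 to 0.30 for C/EBP genes, 0.0231 to 0.0369 for D-box genes and -0.12 to -0.05 for the neighbours. Deviations of same-numbered arrays correlated at -0.02 over all genes. The labels do not say whether the replicate numbers pair the samples, and a correlation over all genes cannot show pairing that touches few genes. With the replicate block, 1 gene was called higher and 0 lower, as without it. Genes under the top bacterial control in both groups, Runx1t1 and Eomes among them, have only a bound on their level, and their differences carry no weight.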
